A study of Mus musculus with 6 samples.

Results

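The genes described here are 10 of the 23726 gene models in a mouse count table, chosen by name: 7 encode matricellular proteins (Tnc, Postn, Spp1, Sparc, Thbs1, Thbs2 and Ctgf), 1 encodes the microfibril protein fibrillin 1 (Fbn1) and 2 encode enzymes that crosslink collagen (Lox and Loxl2). RNA was sequenced from healthy skin, from skin tumours raised with DMBA and TPA, and from cells isolated from such tumours. DMBA is a mutagen, and TPA is a phorbol ester that promotes the growth of mutated keratinocytes. The groups were a DMBA/TPA-induced tumour biopsy (T, 1 library), biopsies of 2 DMBA/TPA-induced papillomas (P1 and P2, 1 library each) and a biopsy of whole healthy skin (S, 1 library). Skin cells isolated from DMBA/TPA tumours formed the other 2 groups, mSCC-38, described as tumorigenic, and mSCC-20, described as non-tumorigenic (1 library each). The labels give culture for mSCC-20 and do not mention it for mSCC-38. Strain, age, sex and the mouse behind each sample are not stated in the labels, nor is it stated whether mSCC-38 and mSCC-20 are clones or which tumour each came from. Papilloma alone has replicates, so its 2 libraries set the spread for the tests on biopsies, and that spread may be technical in part.

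Matricellular proteins are secreted into the extracellular matrix, where they bind collagens, growth factors and cell surface integrins rather than bearing load. In skin several of them are known for their induction at wound edges and in tumour stroma. Tenascin C (Tnc) modulates adhesion to fibronectin, periostin (Postn) and osteopontin (Spp1) bind integrins that contain the alpha v chain, and SPARC binds collagen. The thrombospondins Thbs1 and Thbs2 restrain vessel growth, and Thbs1 can also activate latent TGF-beta. Ctgf, also called Ccn2, is a classical target gene of TGF-beta and of the YAP and TEAD transcription factors. Fibrillin 1 polymers store latent TGF-beta and scaffold elastin. Lox and Loxl2 oxidise lysines of collagen and elastin, the step that allows the fibres to be joined covalently. In a biopsy these transcripts can come from fibroblasts, pericytes, macrophages or the tumour cells.

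The promoters of Spp1, Thbs2 and Fbn1 are shown because these members, chosen after their values were seen, had the highest levels in mSCC-38 among the 4 that were far higher there than in mSCC-20. Each is the 250 bases before an annotated start, 5′ to 3′ on the gene's strand, from RefSeq on GRCm38.p6, a later build than the mm9 of the count table. Capitals mark every match, on either strand, to 4 motifs. These were the AP-1 site TGANTCA, through which TPA acts on many genes, the TEAD site with the letters CATTCC, the SMAD-binding letters CAGAC, and the TATA box letters TATAAA.
Spp1, chr5:104434861-104435110, plus strand: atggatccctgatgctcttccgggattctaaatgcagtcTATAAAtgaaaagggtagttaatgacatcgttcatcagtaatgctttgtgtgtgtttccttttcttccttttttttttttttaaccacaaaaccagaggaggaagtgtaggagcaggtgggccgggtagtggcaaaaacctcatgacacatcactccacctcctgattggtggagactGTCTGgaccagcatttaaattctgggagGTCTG
Thbs2, chr17:14694263-14694512, minus strand: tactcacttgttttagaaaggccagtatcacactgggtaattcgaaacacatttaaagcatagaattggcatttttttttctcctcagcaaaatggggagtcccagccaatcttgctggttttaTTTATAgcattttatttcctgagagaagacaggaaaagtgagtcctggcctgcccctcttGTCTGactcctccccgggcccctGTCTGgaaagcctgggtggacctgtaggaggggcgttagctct
Fbn1, chr2:125506439-125506688, minus strand: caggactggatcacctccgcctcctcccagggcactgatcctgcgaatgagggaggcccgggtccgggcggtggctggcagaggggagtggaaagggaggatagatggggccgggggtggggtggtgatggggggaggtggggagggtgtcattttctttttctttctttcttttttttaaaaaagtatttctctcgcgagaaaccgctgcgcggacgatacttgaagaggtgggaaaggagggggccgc
The Spp1 window shown is that of the first of its 2 annotated starts in the table's order, and holds 1 TATAAA and 2 CAGAC matches; the window of the other start (chr5:104435942-104436191) holds 0 and 1, at a GC content of 35.6%. The Thbs2 window holds 1 TATAAA and 2 CAGAC matches, and the Fbn1 window none of the 4 motifs, with a GC content of 59.2% against 43.6% for the Spp1 window shown and 46.8% for Thbs2. RefSeq windows were used for 6 of the 10 members, 9 windows in all. There were 2 each for Tnc, Postn and Spp1, and 1 each for Sparc, Thbs2 and Fbn1. Both TGANTCA and CATTCC were in 0 of the 9. No window of Thbs1, Ctgf, Lox or Loxl2 was searched, so these counts say nothing about those genes. Over all 32851 windows of this length, 6.75% hold TGANTCA, 12.6% CATTCC, 42.2% CAGAC and 12.4% TATAAA. None of the motifs overlapped another in these 3 windows, and a missing match says only that these letters are not in this stretch. The TATAAA match lay 211 to 206 bases before the start in the Spp1 window shown. In the Thbs2 window it lay 126 to 121 bases before the start, on the opposite strand. Whether any match works as a site was not tested.

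Total counts ranged from 25140489 (papilloma 1) to 42992597 (tumour), so that 3 counts, the most that a count of 0 allows, were 0.0604 to 0.141 CPM. Values are CPM, counts per 1000000 scaled with TMM factors, and intervals on ratios cover counting error only. The RNA integrity number was 7.5 for skin and 8.2 to 9.6 for the other 5 libraries. The papillomas differed from each other by more than counting noise (chi-square per degree of freedom 67.9, 14845 genes compared). No other gene model of the table overlapped a member on either strand, and none carried a member's counts. Keratinocyte markers were counted in all 6 libraries, whereas fibroblast, endothelial and macrophage markers were near 0 in mSCC-20, with sums given below.

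Per length, Sparc had the highest level of the 10 genes in all 4 biopsies and in mSCC-20, and Spp1 in mSCC-38. The deposited RPKM of Sparc were 319.94 in skin, 378.94 and 339.58 in papilloma 1 and papilloma 2, and 420.02 in the tumour, the narrowest spread of the group. Postn was second in the same biopsies, at 78.96, 204.80, 200.69 and 306.43 RPKM. In the tumour, Tnc (151.87 RPKM), Thbs2 (115.72), Thbs1 (107.06) and Spp1 (104.23) followed, and these last 3 lay close together. Lox had the lowest RPKM of the 10 in both papillomas and in the tumour (5.73, 6.20 and 20.23), and Spp1 in skin (2.88). In mSCC-38, Spp1 reached 1281.45 RPKM, 12th of all gene models in that library, with Sparc second in the group at 477.63 RPKM. Spp1 made up 61.3% of the summed RPKM of the 10 genes in mSCC-38, against 4.23% in mSCC-20, where Sparc and Thbs1 made up 60.4% and 22.6%.

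**Figure D1:**
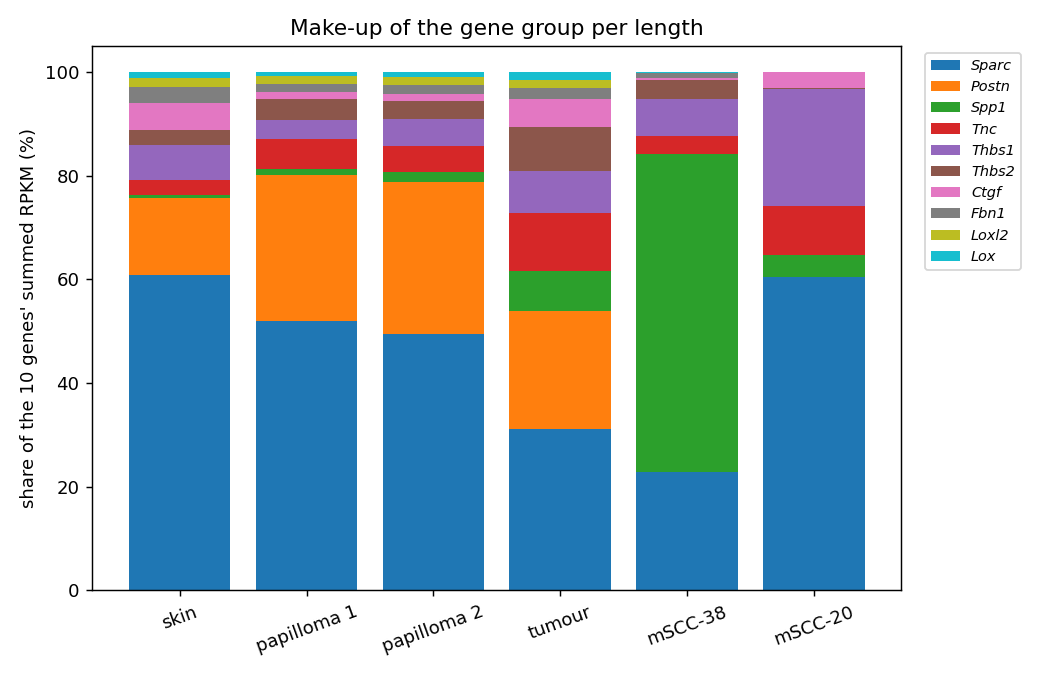
Share of each gene in the summed deposited RPKM of the 10 genes (vertical axis, percent), 1 bar per library. Sparc takes 31.2% in the tumour and 60.8% in skin, and Spp1 takes 61.3% in mSCC-38.

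Papilloma against skin asks which of these genes differ between the benign growth and healthy skin. In the papillomas 5 of the 10 genes rose (Spp1, Postn, Tnc, Thbs2 and Loxl2), 1 fell (Ctgf) and 4 did not pass edgeR's quasi-likelihood test at a Benjamini-Hochberg adjusted p of 0.05 over 16302 genes. Over all genes tested, 12.0% were called higher and 14.3% lower, so the count of rises was above that background and the count of falls near it. The median log2 fold change was 0.73 for the 10 genes and -0.06 for all genes. The biopsies hold mixed cells, in which fewer cells of a type and less RNA per cell cannot be told apart.

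Spp1 (mm9 chromosome 5, 104864131 to 104870072), long known as a TPA-inducible gene of mouse epidermal cells, had 16.8 and 22.3 CPM in papilloma 1 and papilloma 2, against 3.94 CPM in skin. Both papillomas were above skin, with a log2 fold change of 2.31 ± 0.24 (SE, adjusted p by edgeR = 0.00838). Postn (chromosome 3, 54165030 to 54194963) had 784.9 and 691.2 CPM in the papillomas, against 214.4 CPM in skin. It rose by 1.78 ± 0.27 on the log2 scale (adjusted p by edgeR = 0.0164), and the papillomas lay close together. Tnc (chromosome 4, 63620820 to 63708049) had 346.5 and 257.2 CPM in the papillomas, against 89.5 CPM in skin, a log2 fold change of 1.75 ± 0.30 (adjusted p by edgeR = 0.0206). The collagen-organising Thbs2 (chromosome 17, 14802508 to 14831269) had 203.4 and 152.3 CPM in the papillomas and 75.8 CPM in skin. Its rise of 1.23 ± 0.28 (adjusted p by edgeR = 0.0365) was among the smaller ones and lay closer to the threshold.

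Among the crosslinking enzymes, Loxl2 (chromosome 14, 70009284 to 70095641) had 71.9 and 60.4 CPM in the papillomas, against 36.4 CPM in skin. It rose by 0.86 ± 0.19 on the log2 scale (adjusted p by edgeR = 0.0349). Lox (chromosome 18, 52676893 to 52689362) had 24.1 and 23.5 CPM in the papillomas and 19.4 CPM in skin, with a log2 fold change of 0.30 ± 0.14 that did not pass (adjusted p by edgeR = 0.174). With scaling by total counts alone the median log2 fold change of all genes moved to -0.48, and 6.20% of all genes were called higher and 21.2% lower (1010 and 3455 genes, against 1953 and 2324 with TMM). The members then had 3 rises and 1 fall: Thbs2 (log2 fold change 0.80, adjusted p by edgeR = 0.0558) and Loxl2 (0.44, adjusted p by edgeR = 0.116) did not pass.

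Ctgf (chromosome 10, 24315249 to 24318488) was the member that fell in papilloma: it had 24.9 and 23.3 CPM in the papillomas, against 52.7 CPM in skin. The log2 fold change was -1.13 ± 0.15 (adjusted p by edgeR = 0.0132), and the papillomas were nearly equal. Sparc (chromosome 11, 55208004 to 55233582) had 1015.9 and 818.2 CPM in the papillomas and 607.8 CPM in skin. Its log2 fold change of 0.59 ± 0.28 did not pass (adjusted p by edgeR = 0.175) but did by DESeq2's Wald test (0.63, adjusted p = 0.0418). DESeq2 thus called 6 members higher and 1 lower, against 15.2% and 11.3% of the genes it tested. Thbs1 (chromosome 2, 117937659 to 117952869) had 182.4 and 216.8 CPM in the papillomas and 169.8 CPM in skin, with a log2 fold change of 0.23 ± 0.23 (adjusted p by edgeR = 0.472). Fbn1 (chromosome 2, 125126331 to 125332174) had 128.4 and 121.4 CPM in the papillomas and 140.1 CPM in skin, with a log2 fold change of -0.17 ± 0.19 (adjusted p by edgeR = 0.526). The papillomas lay on 1 side of skin in all 4 of the genes that did not pass edgeR's test (Sparc, Thbs1, Lox and Fbn1).

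**Figure D2:**
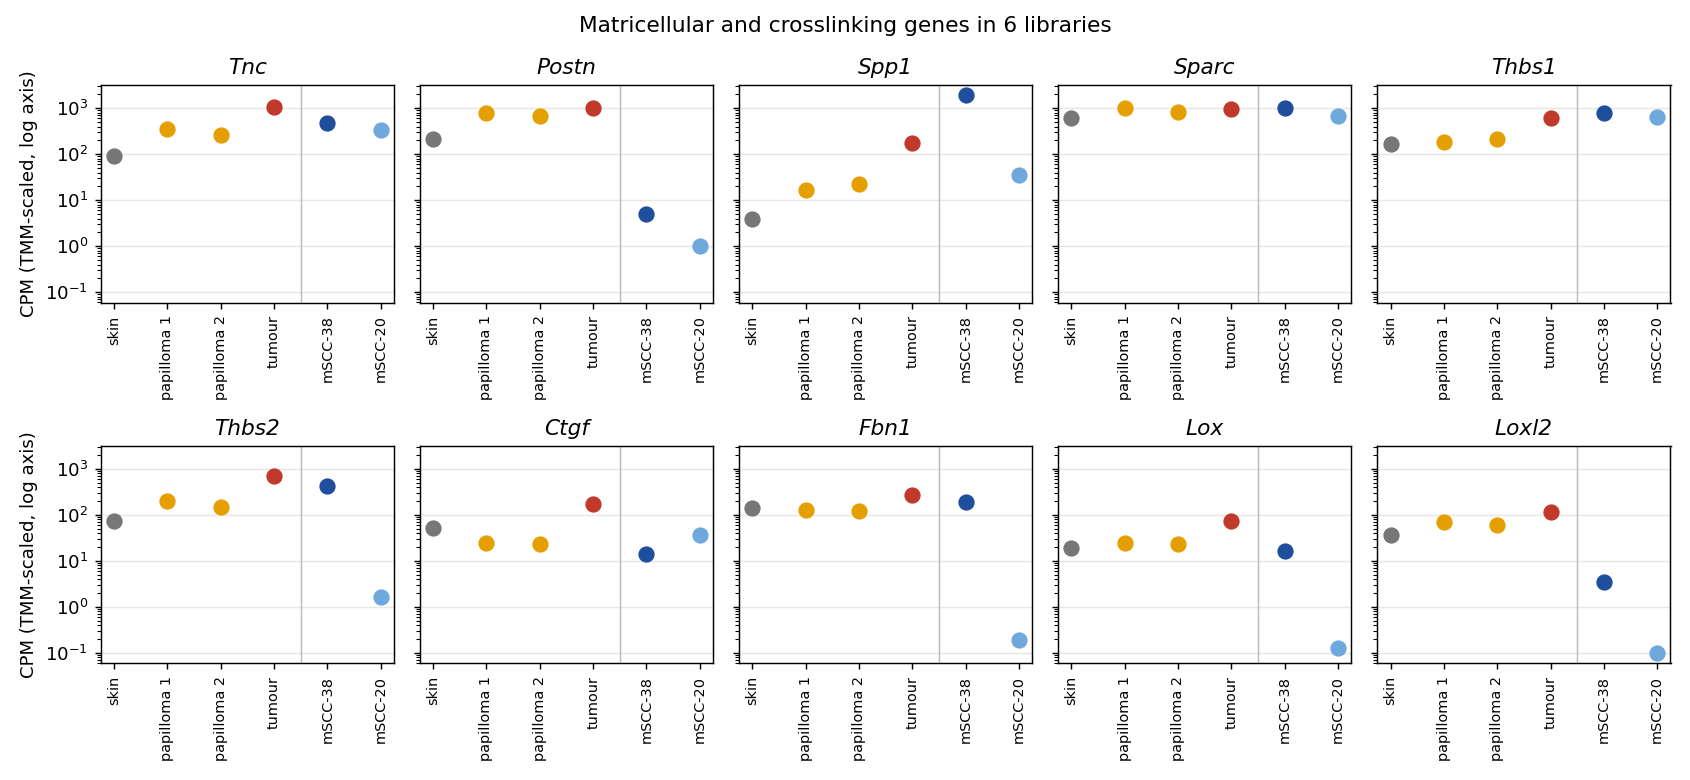
TMM-scaled CPM (log axis) of each gene, 1 panel per gene and 1 point per library, biopsies left of the grey line and isolated cells right of it. In every panel but that of Sparc the tumour is the highest biopsy, and mSCC-20 is near or under 1.7 CPM for Postn, Thbs2, Fbn1, Lox and Loxl2.

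Tumour against papilloma asks how the tumour biopsy differs from the papillomas, and shares the papilloma libraries with the comparison above. In the tumour 8 of the 10 genes rose and 0 fell, with Postn and Sparc not passing; over all genes edgeR called 12.1% higher and 10.6% lower. At an unadjusted p under 0.05 the members gave 8 rises and 0 falls as well, against 20.2% higher and 18.6% lower over all genes, and DESeq2's Wald test also called 8 and 0, against 11.4% higher and 12.1% lower over all genes. With total counts alone the members again had 8 rises and 0 falls, against 10.8% and 7.16% of all genes. The median log2 fold change was 1.64 for the 10 genes and -0.01 for all genes. The test takes the single tumour library to vary as the papillomas do, and has 1 residual degree of freedom.

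Spp1 had the largest of these fold changes, at 174.5 CPM in the tumour, against 16.8 and 22.3 CPM in the papillomas. The log2 fold change was 3.16 ± 0.21 (adjusted p by edgeR = 0.00256). Ctgf, which was lower in papilloma than in skin, had 176.3 CPM in the tumour, against 24.9 and 23.3 CPM in the papillomas. It rose by 2.87 ± 0.15 on the log2 scale (adjusted p by edgeR = 0.00218), to a level also above that of skin (52.7 CPM). Thbs2 had 692.4 CPM in the tumour, against 203.4 and 152.3 CPM in the papillomas, and rose by 1.96 ± 0.25 (adjusted p by edgeR = 0.0098). Tnc had 1089.6 CPM in the tumour, against 346.5 and 257.2 CPM in the papillomas, and rose by 1.85 ± 0.27 (adjusted p by edgeR = 0.013). Thbs1, which had not passed in papilloma against skin, had 627.6 CPM in the tumour, against 182.4 and 216.8 CPM in the papillomas. It rose by 1.65 ± 0.22 on the log2 scale (adjusted p by edgeR = 0.0107).

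The microfibril and crosslinking genes also rose. Lox had 73.8 CPM in the tumour, against 24.1 and 23.5 CPM in the papillomas, a log2 fold change of 1.63 ± 0.14 (adjusted p by edgeR = 0.00404). Fbn1 had 274.9 CPM in the tumour, against 128.4 and 121.4 CPM in the papillomas, a log2 fold change of 1.14 ± 0.18 (adjusted p by edgeR = 0.0159). Loxl2 had 118.0 CPM in the tumour, against 71.9 and 60.4 CPM in the papillomas, a log2 fold change of 0.84 ± 0.18 (adjusted p by edgeR = 0.0334). For these 3 genes the tumour lay above both papillomas. Postn had 1016.9 CPM in the tumour, against 784.9 and 691.2 CPM in the papillomas, and its log2 fold change of 0.46 ± 0.24 did not pass (adjusted p by edgeR = 0.231). Sparc had 975.1 CPM in the tumour, between the 1015.9 and 818.2 CPM of the papillomas, with a log2 fold change of 0.09 ± 0.28 (adjusted p by edgeR = 0.836).

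**Figure D3:**
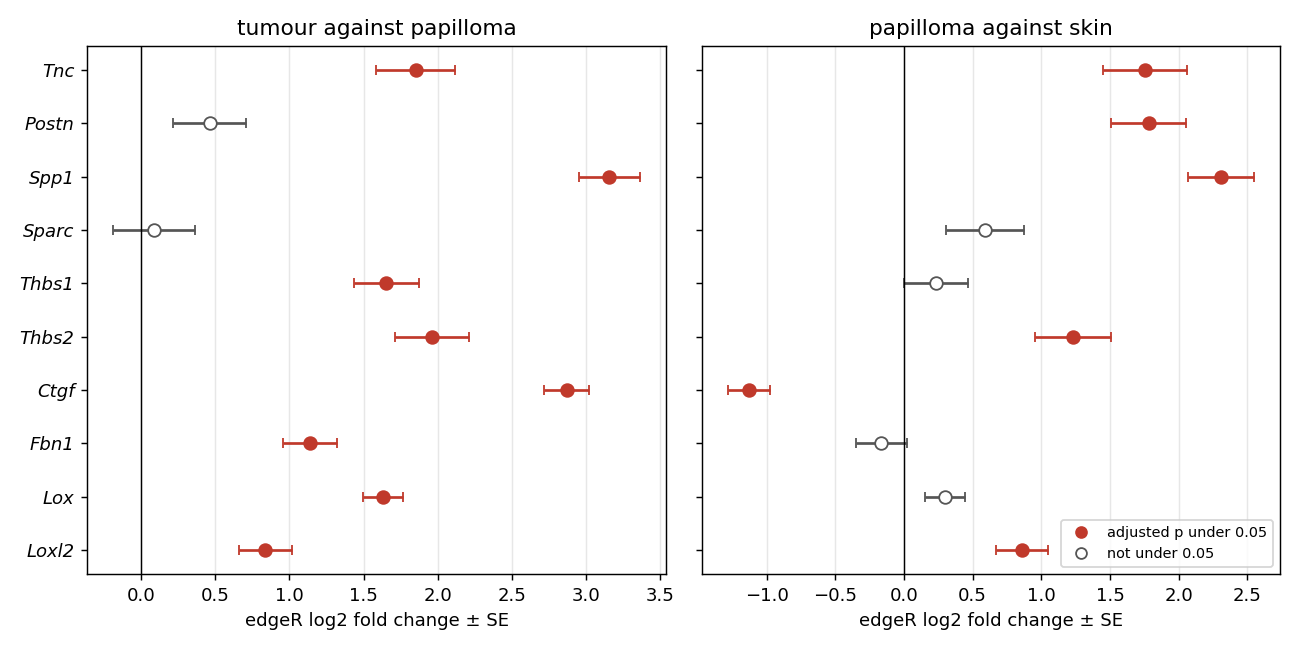
edgeR log2 fold change (horizontal axis) with its SE for each gene, tumour against papilloma on the left and papilloma against skin on the right, filled where the adjusted p over all genes is under 0.05. On the left 8 genes are filled, all to the right of 0, and on the right Ctgf alone is filled to the left of 0.

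Between the papillomas, the log2 ratio of papilloma 2 to papilloma 1 ran from -0.43 for Tnc to 0.39 for Spp1, with a median of -0.14. None of the 10 genes was 4-fold apart, against 1.09% of genes with at least 10 CPM that were at least 4-fold higher and 0.0904% that were at least 4-fold lower in papilloma 2. The mean over the papillomas was 302 ± 63.2 CPM for Tnc, 738 ± 66.3 CPM for Postn and 178 ± 36.1 CPM for Thbs2 (SD, n = 2). It was 24.1 ± 1.06 CPM for Ctgf, 125 ± 4.90 CPM for Fbn1 and 23.8 ± 0.465 CPM for Lox (SD, n = 2), for which the papillomas were closest.

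Tumour against skin has 1 library on each side and no test. It is described by a rule of size, at least 4-fold (with 0.5 CPM added to each side) and at least 10 CPM in the higher library. By this rule 4 of the 10 genes were higher in the tumour and 0 lower, against 5.23% higher and 9.11% lower among 11114 genes with at least 10 CPM. Spp1 was at 174.5 CPM in the tumour and 3.94 CPM in skin, a ratio of 44.3 (95% interval 38.4 to 51.3). Tnc was at 1089.6 and Thbs2 at 692.4 CPM in the tumour, against 89.5 and 75.8 CPM in skin, ratios of 12.2 and 9.14. Postn was at 1016.9 CPM in the tumour and 214.4 CPM in skin, a ratio of 4.74, and with total counts alone it stayed under 4-fold (log2 ratio 1.95). The other 6 genes had ratios of 1.60 (Sparc), 1.96 (Fbn1), 3.24 (Loxl2), 3.34 (Ctgf), 3.70 (Thbs1) and 3.81 (Lox), all on the tumour's side. At a 2-fold threshold 8 of the 10 were higher and 0 lower, against 15.5% and 16.3% of the same genes. The log2 fold change of Postn was 1.78 in papilloma against skin and 0.46 in tumour against papilloma, whereas that of Spp1 was 2.31 and 3.16. These 2 comparisons share the papilloma libraries, and the difference between the steps was not tested.

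The isolated cells show the same genes without most of the tissue. In mSCC-38, 4 of the 10 genes were higher than in mSCC-20 by the rule of size (Spp1, Thbs2, Fbn1 and Lox) and 0 lower, against 6.84% higher and 3.28% lower among 9797 genes with at least 10 CPM. There is 1 library of each, so no value has a replicate check and no test was made. The median log2 ratio was 2.30 for the 10 genes and -0.15 for all genes with at least 10 CPM. These medians are not filtered alike. That of the 10 genes lies between the log2 ratios of Postn (1.89) and Loxl2 (2.71), which were under 10 CPM in both libraries.

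Spp1 had 1959.8 CPM (64956 counts) in mSCC-38 and 34.5 CPM (1063 counts) in mSCC-20, a ratio of 56.8 (95% interval 53.5 to 60.4). It was the highest of the 10 genes in mSCC-38 and supplied 40.1% of their summed CPM there. Thbs2 had 422.4 CPM in mSCC-38 and 1.69 CPM (52 counts) in mSCC-20, a ratio of 250.2 (95% interval 190.7 to 335.2). Fbn1 had 188.6 CPM in mSCC-38 and 0.195 CPM (6 counts) in mSCC-20, a ratio of 968.2 (95% interval 444.6 to 2639.2). Lox had 16.5 CPM in mSCC-38 and 0.13 CPM (4 counts) in mSCC-20, a ratio of 127 (95% interval 49.4 to 468.9). For these genes mSCC-38 held 548 counts or more and mSCC-20, apart from Spp1, held 52 at most.

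Loxl2 and Postn were low in both groups of isolated cells. Loxl2 had 3.41 CPM (113 counts) in mSCC-38 and 0.0974 CPM (3 counts) in mSCC-20, a ratio of 35.0 (95% interval 11.7 to 172). Postn had 5.07 CPM (168 counts) in mSCC-38 and 1.01 CPM (31 counts) in mSCC-20, a ratio of 5.04 (95% interval 3.42 to 7.65). Both stayed under the 10 CPM that the rule of size asks for. The thrombospondin Thbs1, Tnc and Sparc were abundant in both and differed by ratios of 1.23 to 1.48. Thbs1 had 794 CPM in mSCC-38 and 646 CPM in mSCC-20, a ratio of 1.23 (95% interval 1.21 to 1.25). Tnc had 473.1 CPM in mSCC-38 and 333.3 CPM in mSCC-20, a ratio of 1.42, and Sparc had 1012.8 CPM in mSCC-38 and 683.4 CPM in mSCC-20, a ratio of 1.48. Ctgf had 14.5 CPM in mSCC-38 and 37.5 CPM in mSCC-20, the single member lower in mSCC-38, with a ratio of 0.386 (95% interval 0.346 to 0.43). At a 2-fold threshold 4 of the 10 were higher and 1 lower (Ctgf), against 14.6% and 13.8% of the genes with at least 10 CPM.

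The lowest of these values in mSCC-20 were near the level at which the table counts genes of another tissue. A list of 10 hair genes, each with 500 CPM or more in skin and made after the data were seen, was counted in mSCC-20 at a median of 0.0695% and at most 0.115% of the skin level. Fbn1, Loxl2 and Postn in mSCC-20 were at 0.0709%, 0.0825% and 0.099% of their level in the tumour, their highest library, and so within that range. Lox and Thbs2 in mSCC-20 were at 0.176% and 0.244% of theirs, above it. For Lox this rests on 4 counts, and the 95% interval of its ratio of mSCC-20 to the tumour (0.000479 to 0.00451) reaches into that range. Ratios of Fbn1, Loxl2 and Postn to mSCC-20 rest on values within that range, and that of Lox on a value that counting error does not separate from it.

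**Figure D4:**
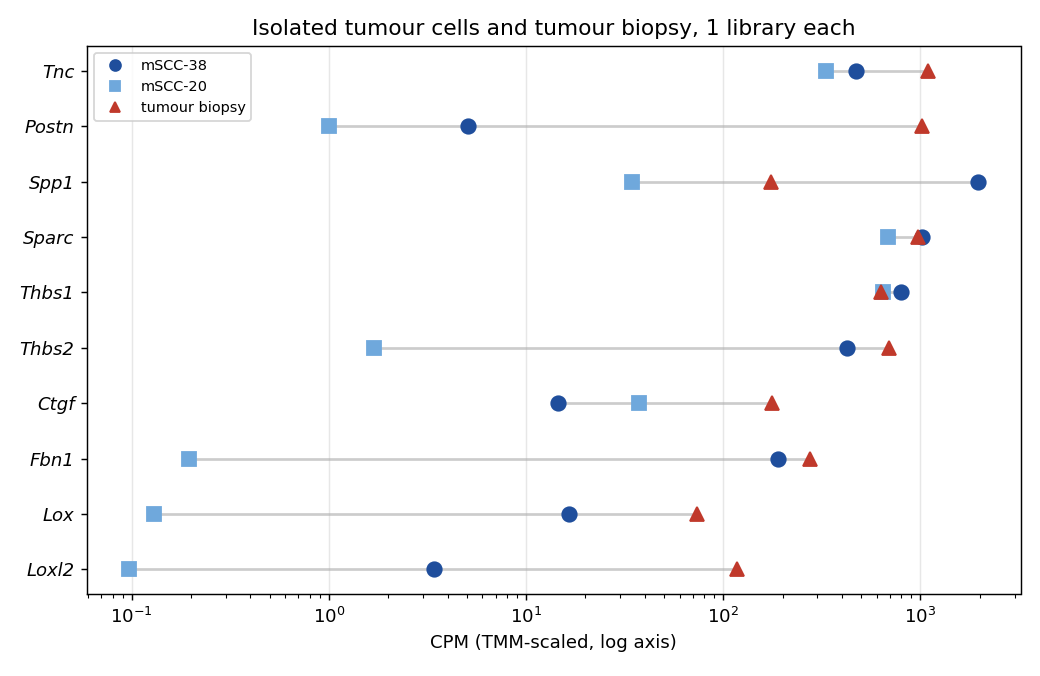
TMM-scaled CPM (log axis) of each gene in mSCC-38 (circles), mSCC-20 (squares) and the tumour biopsy (triangles), 1 library each, joined by a grey line. Spp1 is the member with mSCC-38 far to the right of the tumour, and Postn and Loxl2 are far to the left in both groups of isolated cells.

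Set beside the tumour biopsy, both groups of isolated cells had lower levels of part of the gene group. In mSCC-38, 4 genes were lower than in the tumour by the rule of size (Postn, Ctgf, Lox and Loxl2) and 1 higher (Spp1), against 10.4% lower and 2.85% higher among 10390 genes with at least 10 CPM. Spp1 was at 1959.8 CPM in mSCC-38 and 174.5 CPM in the tumour, a ratio of 11.2 (95% interval 10.96 to 11.5), whereas Postn was at 5.07 CPM in mSCC-38 and 1016.9 CPM in the tumour. In mSCC-20, 7 genes were lower than in the tumour and 0 higher, against 14.4% lower and 6.05% higher among 10503 genes. Those 7 were Postn, Spp1, Thbs2, Ctgf, Fbn1, Lox and Loxl2, the exceptions being Tnc, Sparc and Thbs1. Thbs1 was at 794 CPM in mSCC-38, 646 CPM in mSCC-20 and 627.6 CPM in the tumour. Sparc was at 1012.8 CPM in mSCC-38, 683.4 CPM in mSCC-20 and 975.1 CPM in the tumour.

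Other matricellular genes did not move as 1 group. Of 18 tested, 4 rose and 8 fell in papilloma against skin, with a median log2 fold change of -0.85. Tnn, which encodes tenascin W (also called tenascin N), rose by 5.36 ± 0.39 (69.4 CPM in papilloma and 1.69 CPM in skin, adjusted p by edgeR = 0.00535), and Wisp1, of the family of Ctgf, by 2.03 ± 0.18 (adjusted p by edgeR = 0.00662). Smoc1, a relative of Sparc, fell by 3.22 on the log2 scale and Tnxb, which encodes tenascin X, fell by 2.78. In tumour against papilloma 5 rose and 1 fell. Ecm1, a secreted glycoprotein gene of skin, rose by 2.71 ± 0.37 (2566 CPM in the tumour and 391.6 CPM in papilloma, adjusted p by edgeR = 0.0112), and Cyr61, the nearest relative of Ctgf and like it a YAP target, by 1.32 ± 0.21 (adjusted p by edgeR = 0.0157). Tnxb was the gene that fell, with a log2 fold change of -1.69 ± 0.16 (adjusted p by edgeR = 0.005). Cyr61 was also called in papilloma against skin, but as higher (36.3 CPM in papilloma and 16.3 CPM in skin), opposite to Ctgf.

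Among 17 further microfibril and elastic fibre genes, 3 rose and 7 fell in papilloma against skin (median log2 fold change -0.37). Ltbp1, encoding a latent TGF-beta binding protein, and the fibulin gene Fbln2 rose by 1.18 ± 0.18 and 1.07 ± 0.21, while the fibulin Efemp1 fell by 2.19 and the microfibril gene Mfap5 fell by 2.03 on the log2 scale. In tumour against papilloma 7 rose and 2 fell (median 0.56), with Ltbp2 at 1.64 ± 0.25 and Mfap5 at 1.58 ± 0.38 as the largest rises at 10 CPM or more and the elastin-binding Fbln5 at -1.01 ± 0.15. Of 17 further collagen crosslinking and processing genes, 2 rose and 4 fell in papilloma against skin (median 0.23). The prolyl hydroxylase gene P4ha2 rose by 0.75 ± 0.20, near the threshold (adjusted p by edgeR = 0.0498), the procollagen protease enhancer Pcolce2 fell by 2.18 and the transglutaminase Tgm2 fell by 1.63. In tumour against papilloma 11 of these 17 rose and 0 fell by edgeR, against 13 and 0 without adjustment at 0.05 and 9 and 0 with DESeq2, with a median of 0.92. Loxl3, of the family of Lox, rose by 2.06 ± 0.29 (31.8 CPM in the tumour and 7.60 CPM in papilloma, adjusted p by edgeR = 0.0121) and Fkbp10, a collagen chaperone gene, by 1.74 ± 0.28.

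Of 19 receptor genes for matricellular proteins, 5 rose and 1 fell in papilloma against skin (median 0.49). Ptprz1, a receptor phosphatase gene, rose by 5.61 ± 0.33 (312.5 CPM in papilloma and 6.42 CPM in skin, adjusted p by edgeR = 0.00409), Stab1, a scavenger receptor for SPARC, rose by 1.58 ± 0.21, and the thrombospondin receptor Cd36, also an adipocyte gene, fell by 2.50. In tumour against papilloma Itga9, an integrin chain that binds tenascin C and osteopontin, rose by 1.07 ± 0.22 (adjusted p by edgeR = 0.0289). It was 1 rise against 0 falls by edgeR, with 5 and 1 without adjustment and 2 and 0 with DESeq2. In the isolated cells 5 of the 19 receptor genes were higher in mSCC-38 than in mSCC-20 by the rule of size and 0 lower. Among all genes with at least 10 CPM the shares were 6.84% and 3.28%. The 5 receptor genes are named after their values were seen. Itgb3, the partner of the alpha v integrin chain in an osteopontin and periostin receptor, had 89.5 CPM in mSCC-38 and 1 count in mSCC-20 (0.0325 CPM). The thrombospondin receptor Lrp1 had 1461.2 CPM in mSCC-38 and 116.4 CPM in mSCC-20, and Ptprz1, Egfr and Itga5 had ratios of 54.5, 4.42 and 4.06. Itgav itself was at 298.9 CPM in mSCC-38 and 154.5 CPM in mSCC-20.

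In the same cells the other lists went both ways, and the genes are again named after their values were seen. Of 20 other matricellular genes, 4 were higher in mSCC-38 (Ecm1, Tgfbi, Wisp2 and Smoc2) and 1 lower (Cyr61). Tgfbi, a TGF-beta induced matrix gene, had 646.9 CPM in mSCC-38 and 17.3 CPM in mSCC-20, while Cyr61 had 76.2 CPM in mSCC-38 and 623.2 CPM in mSCC-20. The ratio of mSCC-38 to mSCC-20 was 0.122 for Cyr61 and 0.386 for Ctgf, which did not pass the rule of size. The activity of YAP, of which both are target genes, was not tested. Of 17 microfibril and elastic fibre genes 4 were higher (Fbln1, Fbln5, Ltbp1 and Emilin2) and 1 lower (Efemp1). Among 17 crosslinking and processing genes 2 were higher (Pcolce and Pcolce2) and 2 lower (Loxl4 and Fkbp10). Loxl4, of the family of Lox, had 0.634 CPM in mSCC-38 and 60.5 CPM in mSCC-20, and was thus the Lox family gene counted in mSCC-20 when Lox, Loxl1, Loxl2 and Loxl3 were each at 0.195 CPM or less.

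Markers of the cells that could supply these transcripts were summed in each library. The 10 members summed to 1409.8 CPM in skin, 2799.1 and 2386.5 CPM in the papillomas and 5219 CPM in the tumour. Over the same stages the 10 fibroblast markers summed to 3711.9 CPM, 5009 and 4101 CPM, and 4423.4 CPM. None of the fibroblast markers rose by edgeR, with 5 falls in papilloma against skin (2 and 5 by unadjusted p under 0.05, 3 and 5 with DESeq2) and 4 falls in tumour against papilloma (0 and 4 at an unadjusted p and by DESeq2). Dcn, encoding the collagen-binding proteoglycan decorin, was at 83.4 CPM in the tumour, 241 CPM in papilloma and 859 CPM in skin, whereas the collagen gene Col1a1 was at 1508.7 CPM in the tumour, 1293 CPM in papilloma and 593.2 CPM in skin and passed in neither comparison. With Col1a1, the collagen genes Col1a2 and Col3a1 supplied most of the sum in the tumour, at 1649.1 and 978.4 CPM. In skin Col1a2 and Col3a1 were at 911.1 and 735.5 CPM. Like Dcn, the markers Lum, Dpt, Pi16, Fap and Thy1 were lower in the tumour than in skin. Pdgfra was at 72.1 CPM in the tumour and 65.3 CPM in skin. The part of fibroblasts in the members' rises was not tested.

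Pericyte and smooth muscle markers had 1 rise and 4 falls of 8 in papilloma against skin and 3 rises (Acta2, Tagln and Cnn1, genes of the contractile apparatus) and 1 fall in tumour against papilloma. They summed to 728.9 CPM in the tumour, 442.9 and 383.7 CPM in the papillomas and 828 CPM in skin. Des alone supplied 382.7 CPM of this sum in skin, 63.76 and 45.45 CPM in the papillomas and 79.09 CPM in the tumour. Skin also had the highest sum of skeletal muscle markers, given below. Macrophage and monocyte markers had 2 rises and 3 falls of 8 in papilloma against skin, and 5 rises (Lyz2, C1qa, C1qb, Cd14 and Emr1) and 0 falls in tumour against papilloma by edgeR, with the same counts without adjustment and with DESeq2. They summed to 538.5 CPM in the tumour, 307.3 and 356.4 CPM in the papillomas and 460.3 CPM in skin; Spp1 is a known macrophage transcript, and the macrophages' part in its rise was not tested. In mSCC-38, where Spp1 was highest, C1qa, C1qb and Lyz2 were at 0.0603, 0.0302 and 0.0302 CPM and Emr1 at 0 counts. Csf1r was at 0.392, Mrc1 at 1.72, Cd68 at 12.9 and Cd14 at 13.4 CPM in mSCC-38. In mSCC-20, Cd68 and Cd14 were each at 3.31 CPM. The 8 macrophage markers summed to 28.5 CPM in mSCC-38 and 8.93 CPM in mSCC-20, with 5 of them under 1 CPM in each.

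Endothelial markers had 0 rises and 2 falls of 6 in papilloma against skin and 0 rises and 1 fall in tumour against papilloma (0 and 2 in each without adjustment, and 0 and 2, then 0 and 1, by DESeq2). They summed to 199.4 CPM in the tumour, 229.5 and 204 CPM in the papillomas and 249.3 CPM in skin, and to 4.01 CPM in mSCC-38 and 1.88 CPM in mSCC-20. Of 5 platelet markers, a source of Thbs1 protein, 0 rose and 2 fell in papilloma against skin (0 and 2 unadjusted, 0 and 0 by DESeq2), and in tumour against papilloma the chemokine gene Ppbp rose, to 2911.3 CPM in the tumour, while Pf4 fell. Keratinocyte markers had 2 rises and 0 falls of 8 in papilloma against skin (5 and 0 unadjusted, 6 and 0 by DESeq2), and 0 and 0 in tumour against papilloma (1 and 1 unadjusted, 2 and 1 by DESeq2). Skeletal muscle markers had 0 rises and 5 falls of 6 in papilloma against skin (0 and 5 unadjusted and by DESeq2) and 0 and 1 in tumour against papilloma (0 and 4 unadjusted and by DESeq2). They summed to 572.5 CPM in the tumour, 1592.5 and 969.3 CPM in the papillomas and 8500.8 CPM in skin.

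In the isolated cells the fibroblast markers summed to 191.1 CPM in mSCC-38 and 12.2 CPM in mSCC-20, and 5 and 6 of the 10 were under 1 CPM. By the rule of size 3 of the 10 were higher in mSCC-38 and 0 lower. For this list and those below, the shares over all genes with at least 10 CPM were 6.84% higher and 3.28% lower. Col1a1 was at 122.6 CPM in mSCC-38 and 2.18 CPM in mSCC-20, the collagen gene Col3a1 at 28.9 CPM in mSCC-38 and 1.49 CPM in mSCC-20, and the growth factor receptor gene Pdgfra at 33.4 CPM in mSCC-38 and 5.49 CPM in mSCC-20, ratios of 56.4, 19.3 and 6.08. The other 7 were at 3.14 CPM (Dcn) or less in mSCC-38, with Pi16 at 0 counts in both. Keratinocyte markers summed to 10116.1 CPM in mSCC-38 and 18425.4 CPM in mSCC-20. By the rule of size 2 of the 8 were lower in mSCC-38 and 0 higher; the markers given here were named after their values were seen. Cdh1, the gene of the epithelial adhesion protein E-cadherin, was at 1.63 CPM in mSCC-38 and 195.2 CPM in mSCC-20, and Epcam, another epithelial adhesion gene, was at 3.26 CPM in mSCC-38 and 195.8 CPM in mSCC-20. The keratin gene Krt5 was at 3744.7 CPM in mSCC-38 and 9195.3 CPM in mSCC-20, and Krt14 at 3054.2 and 6605.9 CPM. Trp63, a basal keratinocyte regulator, was at 363.8 CPM in mSCC-38 and 245 CPM in mSCC-20. Dsp, Perp and Itga6 were also higher in mSCC-38, by less than 4-fold. They were at 1139.4, 1063.5 and 745.6 CPM in mSCC-38, and at 988.4, 500 and 499.8 CPM in mSCC-20. The part of these fibroblast and epithelial marker differences in the members' ratios between mSCC-38 and mSCC-20 was not tested. By the rule of size 2 of the 8 pericyte and smooth muscle markers were higher in mSCC-38 and 0 lower, with a median log2 ratio of -0.25. Acta2, a smooth muscle actin gene, had 473.1 CPM in mSCC-38 and 28.5 CPM in mSCC-20. Pdgfrb had 21.1 CPM in mSCC-38 and 0.779 CPM in mSCC-20. The rest of that list was at 2.84 CPM (Tagln) or less in mSCC-38.

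**Figure D5:**
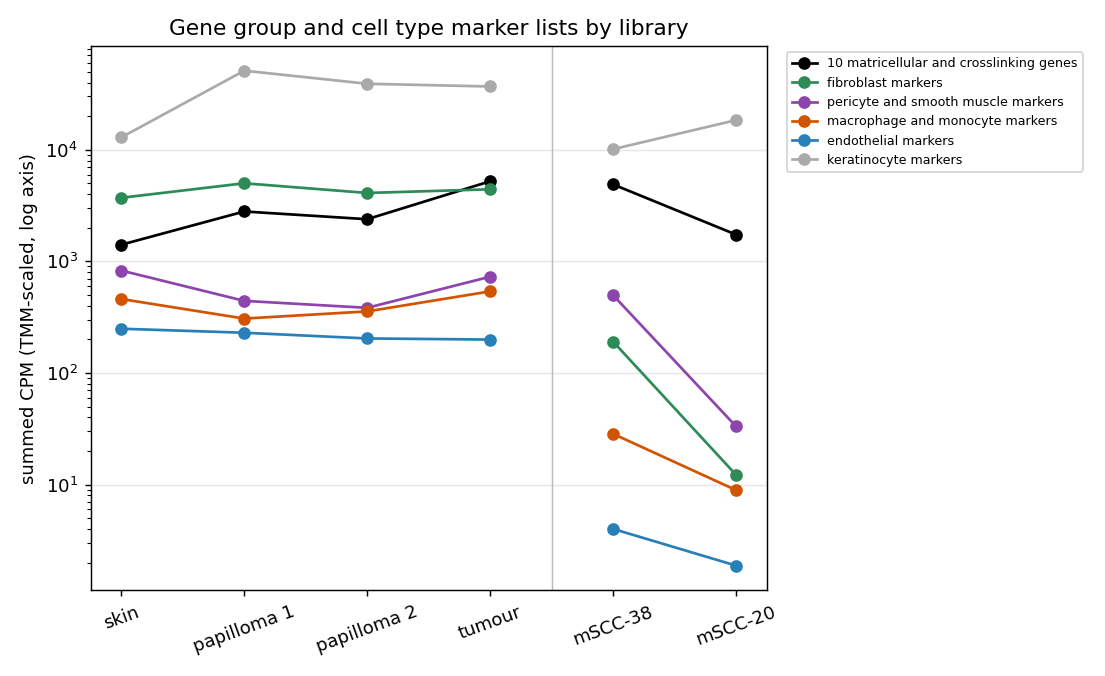
Summed TMM-scaled CPM (log axis) of the 10 genes and of 5 cell type marker lists in each library, biopsies left of the grey line and isolated cells right of it. The 10 genes sum to 5219 CPM in the tumour and 1409.8 CPM in skin. Fibroblast markers sum to between 3711.9 and 5009 CPM in the biopsies, 191.1 CPM in mSCC-38 and 12.2 CPM in mSCC-20. The fibroblast sum pools collagen genes that are higher in the tumour than in skin with markers that are lower, such as Dcn.

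Genes with the most similar profile were found by the mean absolute difference of centred log2 (CPM + 0.5) values over the 6 libraries, among genes with at least 10 CPM in their highest library. This is a description over 6 libraries that share tissue or cell source in part. Sparc and Thbs1 had close neighbours: Als2cl and Snx6 lay 0.07 from Sparc, and Fat1 and Bbx lay 0.09 and 0.12 from Thbs1. Fat1 had 932.9 CPM in the tumour, 296.5 and 346.5 CPM in the papillomas and 246.8 CPM in skin, with 1087 CPM in mSCC-38 and 855.2 CPM in mSCC-20. Tnnt2 (0.16) and Galnt7 (0.25) were nearest to Tnc, Pls1 (0.24) and Tmc4 (0.27) to Ctgf, Prss12 (0.24) and Psmb8 (0.26) to Lox, and Grik3 (0.25) and Gpr64 (0.44) to Thbs2. Csf2rb (0.32) and the procollagen protease gene Adamts2 (0.38) were nearest to Loxl2, Sostdc1 (0.46) and Serpinf1 (0.48) to Fbn1, and Slc5a9 (0.52) and Pglyrp4 (0.55) to Postn. Spp1 had the most distant neighbours, Tbx20 and Rgs17 at 0.91 and 0.92, both near 0 in skin and papilloma and at 58.6 and 26.6 CPM in mSCC-38.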

How the data were processed

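Total RNA of 6 mouse samples was extracted with Qiazol, column purified and prepared for SOLiD sequencing with a kit meant for small RNA, per the labels' protocols. The authors deposited 1 table of raw counts and RPKM per gene model, with gene length; the build was mm9, per the submitters' processing notes, with the aligner, the counter and strand use not stated. Deposited RPKM were used as such for levels between genes; the summed counts of each library were 100.4% to 100.8% of the total behind the RPKM. Starts were shifted to count from 1.

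Samples were grouped by title. Counts were scaled with TMM factors over all 6 libraries (0.849 to 1.20) and tested with edgeR 4.0.16 (limma 3.58.1, R 4.3.3) in 1 fit of the 4 biopsies, filterByExpr by group leaving 16302 genes, with 1 residual and 3.84 prior degrees of freedom. The SE is the absolute log2 fold change divided by the square root of the F statistic. The step was also run on simulated data that had the same spread in every group. Such data cannot check whether the single skin and tumour libraries vary as the papillomas do. Comparisons of single libraries use the rule of size and exact Clopper-Pearson 95% intervals. Alternatives were DESeq2 1.42.0, its size factors, total counts, no filter, 0.1 CPM added, a 2-fold rule and leaving out a papilloma. The members and lists were chosen with earlier results of these data known. Named from each list were the 2 highest and 2 lowest called genes per tested comparison with at least 10 CPM, and 2 nearest genes per member.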

Additional observations from a re-analysis of the deposited data

How the results depend on the processing

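All 8 rises and 0 falls of members in tumour against papilloma were also the counts with DESeq2, its size factors, total counts and no filter; with total counts the median log2 fold change of all genes was 0.12, against -0.01 with TMM. In papilloma against skin total counts gave 3 rises in place of 5, with Thbs1 at -0.18 and Lox at -0.12 (log2, both uncalled) in place of 0.23 and 0.30, while the median of all genes was -0.48, against -0.06 with TMM. With a 2-fold rule of size, 8 members in place of 4 were higher in the tumour than in skin, against 15.5% of all genes with at least 10 CPM, and 1 in place of 0 (Ctgf) was lower in mSCC-38 than in mSCC-20, against 13.8% of genes, because the threshold is lower. With either papilloma left out there is no residual degree of freedom, so no test was made; no called member changed direction. No paired analysis was possible because only papilloma has more than 1 replicate. Depth limits Fbn1, Lox and Loxl2 in mSCC-20 (3 to 6 counts), and the tumour, skin, mSCC-38 and mSCC-20 have no replicate.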
